A study of Mus musculus with 15 samples.

Results

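The signals of 41 genes of the bone morphogenetic protein (BMP), activin and transforming growth factor beta (TGF-beta) pathways were read in newborn mouse pituitary RNA. The genes come from a written list of 12 ligand genes, 11 receptor genes, 9 inhibitor genes, 5 SMAD genes and 4 Id target genes. Of the 41, 40 were measured among the 18193 genes of the array, each by the probe set whose mean over the 15 arrays is highest. Bmp3 has no probe set named to it alone in the annotation used and was not analysed here.

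Each array carried RNA from a pool of pituitaries taken on postnatal day 1, with 5 pools in each of 3 groups. Pit1+/+ is wild type and Pit1dw/dw is homozygous for the Snell dwarf allele of the transcription factor gene Pit1, both on the DW/J background. The third group is labelled Prop1df/df and is on the DF/B background. All mice were fed a high fat chow. Wild-type pools of that background were not analysed here, so in both comparisons with Prop1df/df the strain and the genotype cannot be told apart. How many pituitaries went into a pool, and the sex of the pups, the sources used here do not give. The pools are labelled as biological replicates. The RNA is from whole pituitaries, so fewer cells of a type and less RNA per cell cannot be told apart in any result.

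BMPs, activins and TGF-betas are paired ligands that bring type I and type II serine/threonine kinase receptors together. The type I receptor then phosphorylates SMAD proteins, Smad1 and Smad5 for BMPs and Smad2 and Smad3 for activins and TGF-betas, which enter the nucleus with Smad4. Noggin, chordin, gremlin and follistatin trap ligands outside the cell, while Smad6, Smad7 and Bambi damp the signal at or below the receptor. In the pituitary, BMP signals are needed to form Rathke's pouch, and activin raises follicle stimulating hormone output from gonadotrophs, which inhibin and follistatin oppose. The Id genes, which encode inhibitors of helix-loop-helix transcription factors, are direct BMP targets in many cells.

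The arrays' medians ran from 4.31 to 4.43 (log2 signal), and precision is limited by the number of arrays. Pit1 itself has no probe set named to it alone in the annotation used, so its transcript was not analysed here. Pit1+/+ pool 1 carries a genotype entry that reads Prop1df/df, against its title, its source name and its strain, and was kept in the group of its title. Its growth hormone (Gh) signal was 14.22, within 14.15 to 14.28 for the group, though Gh reached 14.07 in Prop1df/df. Other markers of the Pit1 lineage were farther apart. In that pool the thyrotroph hormone gene Tshb read 11.91, Ghrhr 9.59 and Trhr 7.08, beside at most 9.89, 7.69 and 4.58 in Prop1df/df. Pituitary markers were present in every pool, with the corticotroph hormone precursor Pomc at 13.19 or more. The Prop1df/df pools do not form an even group. Gh read 13.58, 14.07 and 14.03 in pools 1, 2 and 3 but 8.99 and 10.24 in pools 4 and 5, beside 7.15 to 10.31 in Pit1dw/dw. Tshb split them likewise, with 9.83, 9.89 and 9.68 against 6.28 and 7.17, all below 11.67 to 12.29 in Pit1+/+. Ghrhr read 5.98, 7.69 and 7.38 against 4.77 and 5.06, beside 9.45 to 9.85 in Pit1+/+. Trhr read 4.31, 4.58 and 4.40 against 3.92 and 3.52, beside 6.35 to 7.72. Prl did not split them, at 3.09, 3.00 and 2.87 against 3.02 and 3.62, beside 3.78 to 4.83. Each change past the threshold with Prop1df/df is given below with and without pools 1, 2 and 3.

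**Figure D1:**
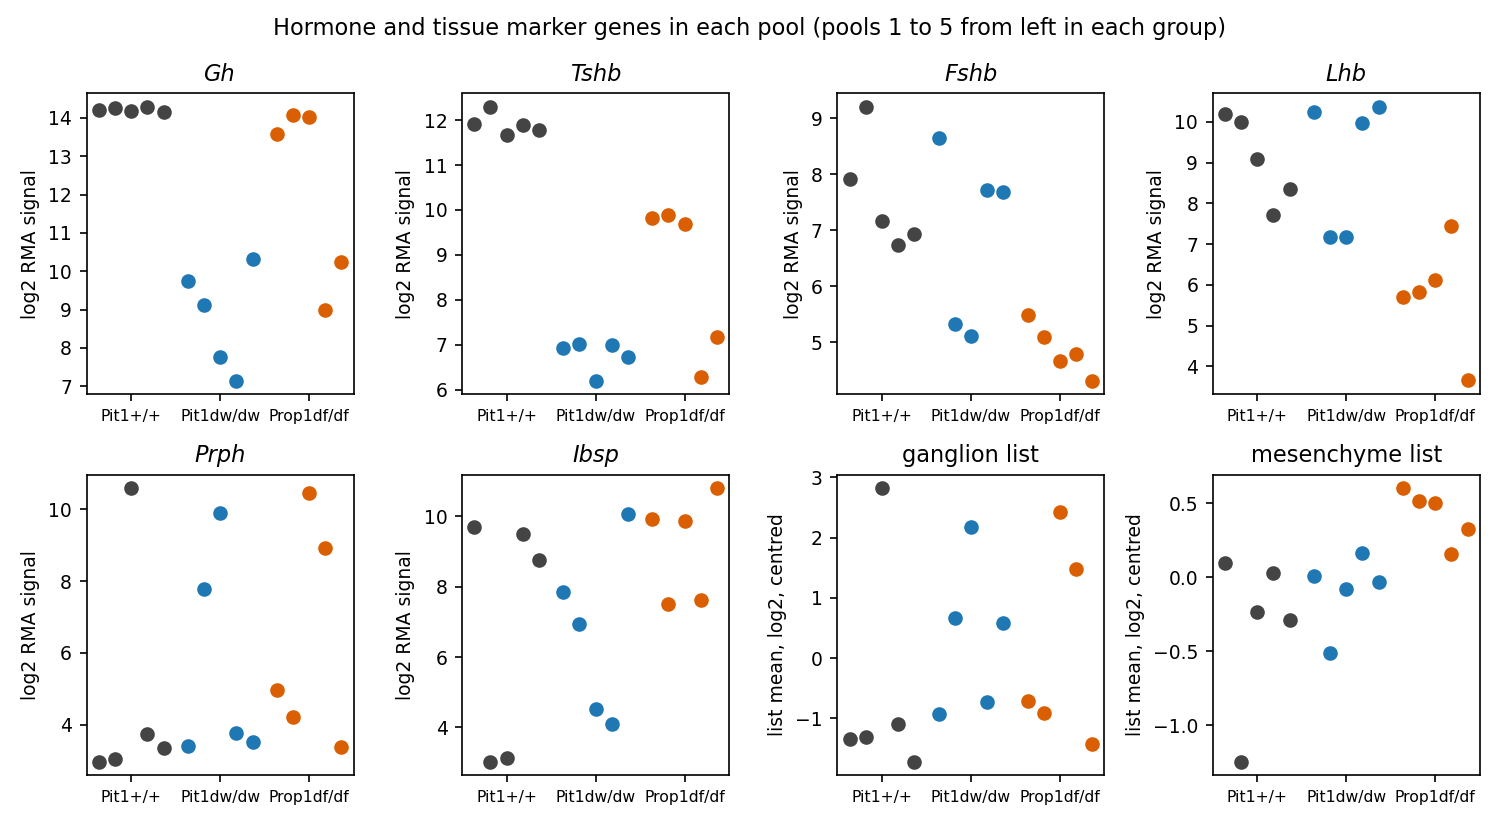
Log2 RMA signal of 6 hormone and tissue marker genes, and the centred mean of the ganglion and mesenchyme marker lists, in each pool, with pools 1 to 5 from left to right in each group. Gh and Tshb stand high in Prop1df/df pools 1, 2 and 3 and low in pools 4 and 5, while the mesenchyme list lies between 0.16 and 0.60 in Prop1df/df and between -1.25 and 0.10 in Pit1+/+.

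Markers of other tissue also differed between pools. The mean of 6 mesenchyme markers (6 of 6 measured), each centred on the 15 arrays, ran from -1.25 to 0.10 in Pit1+/+, from -0.51 to 0.16 in Pit1dw/dw and from 0.16 to 0.60 in Prop1df/df. The bone and cartilage list (8 of 9 measured) ran from -1.83 to 0.65, from -1.18 to 0.88 and from -0.08 to 1.89 in the same order, and the ganglion list (9 of 12 measured) from -1.71 to 2.82, from -0.92 to 2.17 and from -1.42 to 2.42. Gonadotroph markers (4 of 4 measured) ran from -0.17 to 1.03, from -0.15 to 1.46 and from -1.70 to -0.47. In limma's test, 3 mesenchyme and 3 bone markers rose and 2 gonadotroph and 2 pituitary markers fell in Prop1df/df against Pit1+/+. Between the mutants, 2 bone markers rose and 3 gonadotroph and 3 pituitary markers fell. In Pit1dw/dw against Pit1+/+, 2 gonadotroph markers rose, Gnrhr by 1.49 and Nr5a1 by 1.38. Lhb and Fshb did not, at 7.17 to 10.36 and 5.11 to 8.65 beside 7.71 to 10.19 and 6.73 to 9.20 in Pit1+/+. Of the Pit1-lineage list (5 of 5 measured), 5 markers fell in Pit1dw/dw and 4 in Prop1df/df against Pit1+/+, and 1 rose between the mutants. In each mutant against Pit1+/+, 1 muscle and 1 neural lobe marker fell. Slopes of the members on these lists within groups were fitted for the ganglion and bone lists only.

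Pit1dw/dw against Pit1+/+ asks what the Pit1 mutation does to the pathway within a strain. Id2, a BMP target, rose, and Chrd, which encodes the BMP trap chordin, fell. The other 38 members did not pass the test (limma, adjusted p under 0.05 over 18193 genes). Over all genes, 0.770% passed, 0.165% higher and 0.605% lower. The members' median difference was 0.13 on the log2 scale, beside -0.02 for all genes, and 28 of 40 lay above 0, beside 45.2% of all genes. At an unadjusted p under 0.05 there were 8 members and 1539 genes. Groups that did not overlap in any pool were found for 1 member, Id2, which was higher, beside 2.78% of all genes, 0.863% higher and 1.91% lower.

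Prop1df/df against Pit1+/+ compares that mutant with wild-type pituitary of another strain. The BMP ligand gene Bmp5 and the BMP receptor gene Bmpr1b rose most among the members, and Inhba, Tgfb2, Tgfbr2, Id1 and Id2 rose too. Inhbb, a subunit gene of activin B and inhibin B, and Chrd fell. These 9 of 40 members stand beside 10.6% of all genes, 3.25% higher and 7.31% lower. The median difference was 0.11 for the members and -0.04 for all genes, with 24 of 40 members and 44.2% of all genes above 0. At an unadjusted p under 0.05 there were 16 members and 4441 genes. Bmp5, Bmpr1b, Id1 and Id2 did not overlap between the groups, each higher in Prop1df/df, beside 8.01% of all genes that did not overlap, 2.56% higher and 5.45% lower. Leaving out Prop1df/df pools 1, 2 and 3 left 4 members past the threshold (Bmp5, Inhba, Bmpr1b and Id2) and 890 genes in place of 1920. With fewer pools a call is harder to reach, so a call lost there does not by itself show a smaller change. With the mesenchyme list mean as a covariate, 2 members passed, Bmp5 and Bmpr1b. That list mean did not overlap between these groups, at -1.25 to 0.10 in Pit1+/+ and 0.16 to 0.60 in Prop1df/df. A call lost with it therefore cannot tell the group from the mesenchyme markers. Leaving out Pit1+/+ pool 2, Prop1df/df pool 1 or Prop1df/df pool 2 left 6 members past the threshold, fewer than with any other pool left out. The count over all genes fell under the mesenchyme covariate too, and moved both up and down as single pools were left out. Those counts are given under the dependence on the processing.

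Prop1df/df against Pit1dw/dw compares the mutants with each other. Bmp5, Inhba and Bmpr1b rose, while the inhibin and activin subunit genes Inhbb and Inha and the signal carrier gene Smad2 fell. These 6 of 40 members stand beside 6.26% of all genes, 2.21% higher and 4.05% lower. The median difference was 0.02 for the members and -0.02 for all genes, with 21 of 40 members and 46.4% of all genes above 0. At an unadjusted p under 0.05 there were 12 members and 3664 genes. Groups did not overlap for Bmp5, Inhba and Bmpr1b, which were higher, and for Inhbb, Inha and Id2, which were lower, beside 8.50% of all genes, 3.00% higher and 5.51% lower. When Prop1df/df pools 1, 2 and 3 were left out, 2 members passed, Inhba and Inhbb, and without pool 1 alone 3 passed. With the mesenchyme list mean as a covariate, only Bmp5 of the members passed. That list mean overlapped little between the mutants, at -0.51 to 0.16 in Pit1dw/dw and 0.16 to 0.60 in Prop1df/df, so the same limit holds. The count over all genes also fell without pools 1, 2 and 3 and with that covariate, as given under the dependence on the processing. The 3 comparisons share pools in pairs, so their results are not independent of each other.

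**Figure D2:**
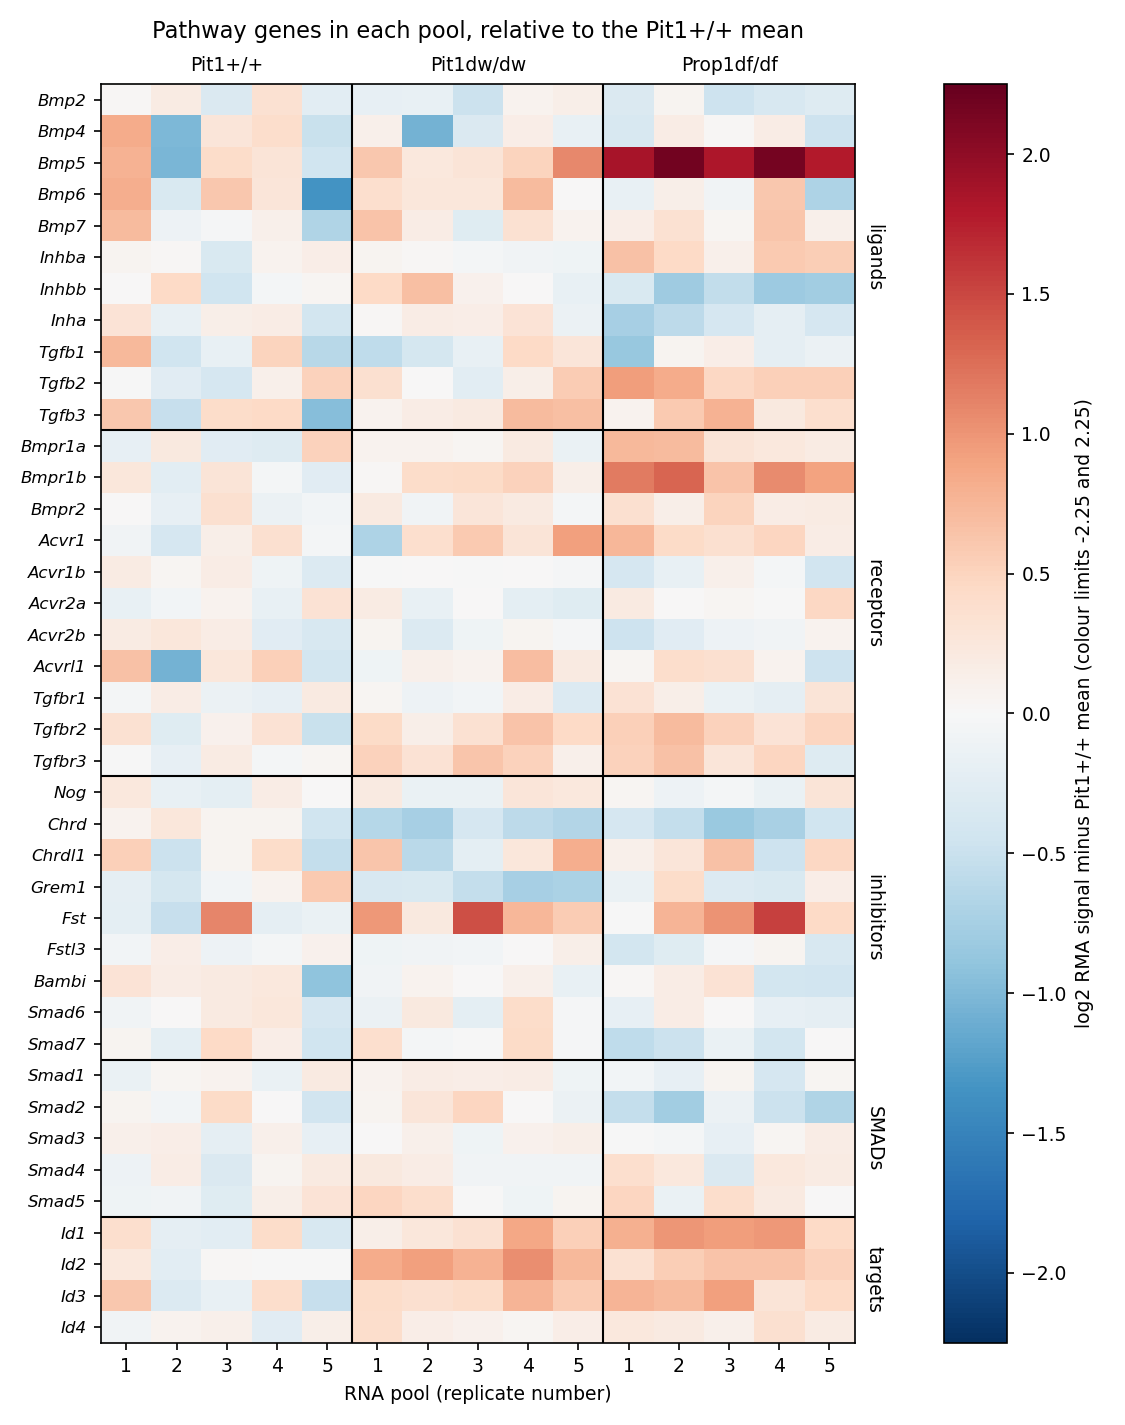
Log2 RMA signal of the 40 measured genes in each pool minus the gene's Pit1+/+ mean, ordered by role, with red above and blue below that mean. Bmp5 and Bmpr1b are red in all 5 Prop1df/df pools, Id2 is red in all 10 mutant pools, and Inhbb is blue in all 5 Prop1df/df pools.

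**Figure D3:**
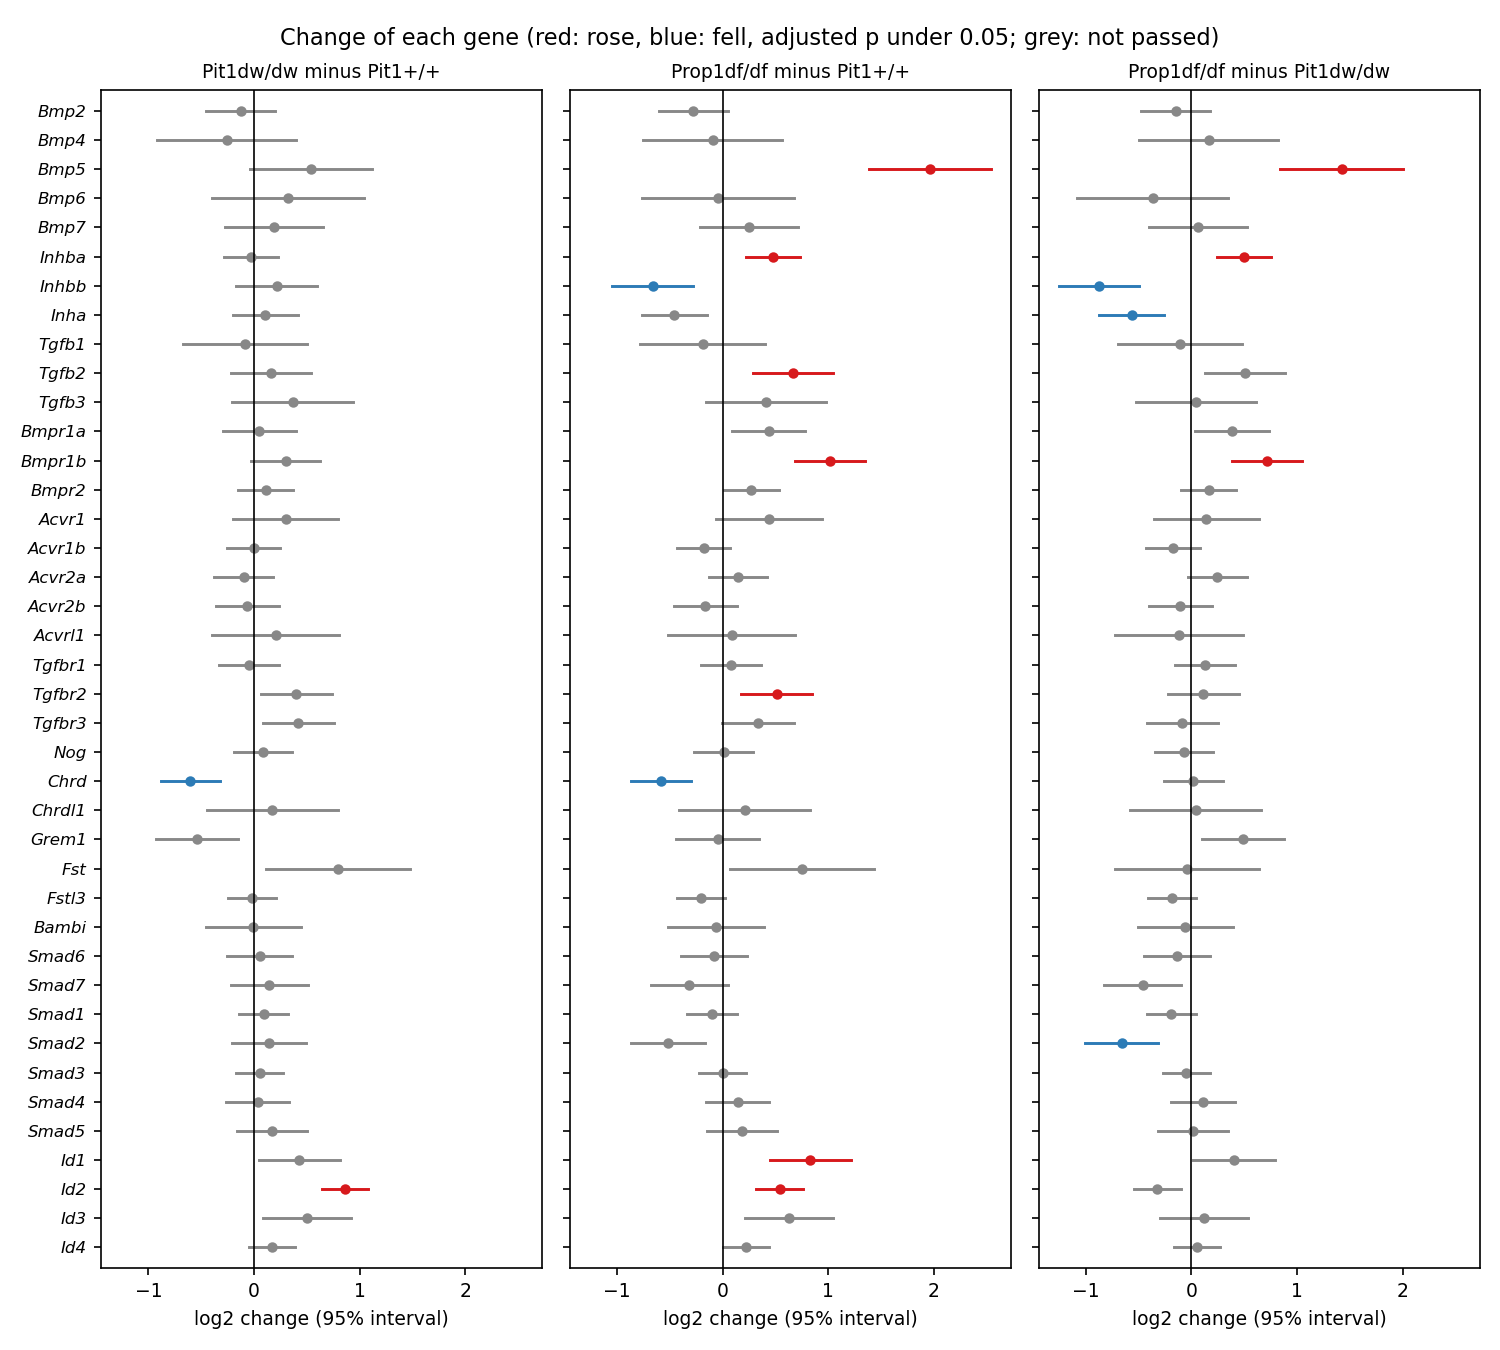
Log2 change of each gene in the 3 comparisons, with its 95% interval from limma; red genes rose, blue genes fell and grey genes did not pass an adjusted p of 0.05. Bmp5 stands farthest from 0 in both comparisons with Prop1df/df, at 1.96 and 1.42.

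The stretches of 250 bases before the start sites of 5 genes past the threshold, picked with their values known, are shown because Pit1 is a POU-homeodomain protein and Id2 is a BMP target. The 4 ligand and receptor genes among them passed only in comparisons with Prop1df/df, and not in Pit1dw/dw against Pit1+/+. RefSeq promoters (build GRCm38.p6) were at hand for 27 of the 41 genes. Capitals mark the homeodomain core TAAT or its reverse complement ATTA in the 4 ligand and receptor genes, and GGCGCC, a GC-rich BMP response sequence, in Id2. Both strands were searched. The windows are chr9:75775115-75775364 on the plus strand for Bmp5, chr3:141982265-141982514 on the minus strand for Bmpr1b (the start site listed first), chr13:16011601-16011850 on the plus strand for Inhba, chr1:119422249-119422498 on the minus strand for Inhbb and chr12:25096093-25096342 on the minus strand for Id2. They lie upstream of the transcribed gene.
Bmp5: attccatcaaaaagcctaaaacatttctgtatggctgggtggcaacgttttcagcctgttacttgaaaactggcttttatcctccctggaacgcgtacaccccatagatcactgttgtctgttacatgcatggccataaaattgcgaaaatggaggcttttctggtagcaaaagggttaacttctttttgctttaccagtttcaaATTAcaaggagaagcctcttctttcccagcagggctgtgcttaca
Bmpr1b: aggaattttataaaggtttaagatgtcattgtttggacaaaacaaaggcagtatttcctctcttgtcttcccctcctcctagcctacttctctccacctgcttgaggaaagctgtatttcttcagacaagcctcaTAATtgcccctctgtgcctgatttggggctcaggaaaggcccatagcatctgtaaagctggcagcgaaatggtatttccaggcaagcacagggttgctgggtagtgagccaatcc
Inhba: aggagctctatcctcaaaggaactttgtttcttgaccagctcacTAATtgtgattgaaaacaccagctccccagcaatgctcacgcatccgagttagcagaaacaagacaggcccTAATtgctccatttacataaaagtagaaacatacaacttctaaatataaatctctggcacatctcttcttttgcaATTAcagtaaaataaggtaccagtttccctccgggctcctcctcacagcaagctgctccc
Inhbb: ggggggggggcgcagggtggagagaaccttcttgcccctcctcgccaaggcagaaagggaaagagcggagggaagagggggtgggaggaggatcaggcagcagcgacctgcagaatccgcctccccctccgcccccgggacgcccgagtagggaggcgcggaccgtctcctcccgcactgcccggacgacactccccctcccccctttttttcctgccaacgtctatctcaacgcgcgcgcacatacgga
Id2: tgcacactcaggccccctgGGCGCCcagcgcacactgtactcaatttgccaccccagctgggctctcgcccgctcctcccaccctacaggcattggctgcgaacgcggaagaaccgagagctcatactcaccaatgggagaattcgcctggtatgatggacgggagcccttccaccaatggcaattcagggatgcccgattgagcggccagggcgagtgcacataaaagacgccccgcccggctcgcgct
Bmp5 and Bmpr1b each held 1 TAAT, Inhba held 3 and the GC-rich window of Inhbb (68.0% G and C) held 0. TAAT was in 8 of the 27 members' windows (29.63%) and in 55.34% of 27025 promoters, so its presence in a window is common. GGCGCC stood 231 bases before the Id2 start, and was in 7 of the 27 windows (25.93%) and in 9.54% of all promoters. The POU sequence ATGNATA was in 0 of 27 windows and 8.16% of all. The SMAD-binding sequence GTCTG was in 11 of 27 (40.74%) and 42.11% of all, its palindrome GTCTAGAC in 0 of 27 and 0.17%, and the E box CANNTG in 8 of 27 (29.63%) and 66.04%. GTCTAGAC does not contain GTCTG. A match is a run of letters in a window and was not tested as a binding site.

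Among the BMP ligands, Bmp5 was the gene that moved. Its signal read 6.26, 4.46, 5.89, 5.77 and 5.03 in Pit1+/+ pools 1 to 5, 6.08, 5.72, 5.77, 5.97 and 6.55 in Pit1dw/dw, and 7.34, 7.65, 7.30, 7.63 and 7.27 in Prop1df/df. All 5 Prop1df/df pools lay above all 10 Pit1 pools, and the spread was widest in Pit1+/+. Group means were 5.48 ± 0.73, 6.02 ± 0.33 and 7.44 ± 0.19 (SD, n = 5 each). Bmp5 was 3.89-fold higher in Prop1df/df than in Pit1+/+ (log2 change 1.96, SE 0.27, adjusted p = 0.000255) and 2.68-fold higher than in Pit1dw/dw (1.42, adjusted p = 0.00403). The difference between Pit1dw/dw and Pit1+/+ was 0.54 with a 95% interval from -0.04 to 1.12 (adjusted p = 0.646). The rise over Pit1+/+ passed in all 24 alternative settings, at 1.23 to 2.15. It was 1.97 without Prop1df/df pools 1, 2 and 3 (adjusted p = 0.0133) and 1.23 with the mesenchyme list mean as a covariate (adjusted p = 0.0235). Over Pit1dw/dw the difference without those pools was 1.43, and it did not pass (adjusted p = 0.0873). It did not pass either with the ganglion and bone covariates, the means of those marker lists, (1.04, adjusted p = 0.0613) or without the pools high in the neurone marker Prph (1.22, adjusted p = 0.108).

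The other BMP ligands did not pass in any comparison. Bmp2 and Bmp4, the ligands best known from early pituitary development, differed by -0.28 (95% interval -0.60 to 0.05) and -0.09 (-0.75 to 0.56) between Prop1df/df and Pit1+/+. For Bmp6 and Bmp7 those differences were -0.05 (-0.76 to 0.67) and 0.25 (-0.22 to 0.71). The pools of a group differed widely for Bmp4 and Bmp6, and Bmp6 read 7.26, 6.10, 7.06, 6.71 and 5.10 in the 5 Pit1+/+ pools. Between Pit1dw/dw and Pit1+/+, Bmp2 differed by -0.13, Bmp4 by -0.26, Bmp6 by 0.32 and Bmp7 by 0.19, with adjusted p-values of 0.894 or more.

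Of the activin and inhibin subunit genes, Inhba rose and Inhbb fell in Prop1df/df against both other groups, and Inha fell against Pit1dw/dw. Inhba encodes the beta A subunit of activin A, and its signal was 3.94, 3.91, 3.53, 3.96 and 4.03 in Pit1+/+, 3.94, 3.90, 3.83, 3.79 and 3.78 in Pit1dw/dw, and 4.54, 4.32, 3.98, 4.47 and 4.43 in Prop1df/df. Prop1df/df lay above every Pit1dw/dw pool, and its pool 3 lay within the Pit1+/+ range. Inhba was higher by 0.47 over Pit1+/+ (SE 0.12, adjusted p = 0.0181) and by 0.50 over Pit1dw/dw (adjusted p = 0.0188). These signals lie near or below the median of all values (4.37), so the gene is dim and a fold is compressed there. The rises were 0.57 (adjusted p = 0.0371) and 0.60 (adjusted p = 0.0428) without Prop1df/df pools 1, 2 and 3. Leaving out Prop1df/df pool 1 alone ended both calls, at 0.42 (adjusted p = 0.0527) and 0.45 (adjusted p = 0.0546), as did leaving out Pit1dw/dw pool 4 for the latter (0.48, adjusted p = 0.052). With the mesenchyme covariate neither passed (adjusted p = 0.148 and 0.0716), nor did the rise over Pit1+/+ in a fit of those 2 groups alone (adjusted p = 0.0681) or with the mean of its 2 probe sets (0.19, adjusted p = 0.232).

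Inhbb encodes the beta B subunit of activin B and inhibin B. It read 5.33, 5.76, 4.86, 5.27 and 5.35 in Pit1+/+, 5.76, 5.997, 5.40, 5.32 and 5.14 in Pit1dw/dw, and 4.97, 4.50, 4.76, 4.49 and 4.52 in Prop1df/df. All Prop1df/df pools lay below all Pit1dw/dw pools, and only Pit1+/+ pool 3 reached down into their range. Inhbb fell by 0.66 on the log2 scale against Pit1+/+ (SE 0.18, adjusted p = 0.0262) and by 0.88 against Pit1dw/dw (adjusted p = 0.00673). The differences were -0.81 (adjusted p = 0.0873) and -1.02 (adjusted p = 0.0455) without Prop1df/df pools 1, 2 and 3. Against Pit1+/+ the call was also lost when Pit1+/+ pool 1 (-0.66, adjusted p = 0.0527) or pool 2 (-0.55, adjusted p = 0.073) was left out, or Prop1df/df pool 2 (-0.63, adjusted p = 0.0646), pool 4 (-0.62, adjusted p = 0.0577) or pool 5 (-0.63, adjusted p = 0.0607). With the mesenchyme covariate the differences were -0.37 (adjusted p = 0.492) and -0.68 (adjusted p = 0.0871). With the ganglion and bone covariates neither passed (adjusted p = 0.183 and 0.0573), and without the pools high in Prph the fall against Pit1dw/dw did not (adjusted p = 0.0767). With the mean of its 2 probe sets, the difference from Pit1+/+ was -0.40 (adjusted p = 0.0519).

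Inha encodes the alpha subunit that turns activin subunits into inhibins. Its pools read 7.43, 6.96, 7.26, 7.29 and 6.71 in Pit1+/+, 7.16, 7.29, 7.27, 7.44 and 7.0004 in Pit1dw/dw, and 6.38, 6.53, 6.75, 6.93 and 6.75 in Prop1df/df. Prop1df/df lay below every Pit1dw/dw pool and overlapped with Pit1+/+ pool 5. Inha fell by 0.56 against Pit1dw/dw (SE 0.15, adjusted p = 0.0283), and its difference from Pit1+/+ was -0.46 (adjusted p = 0.0548), or -0.29 without Prop1df/df pools 1, 2 and 3. The fall was not called without Prop1df/df pools 1, 2 and 3 (-0.39, adjusted p = 0.388), or when Pit1dw/dw pool 2, 3 or 4 or Prop1df/df pool 1 or 2 was left out (-0.55, -0.55, -0.51, -0.49 and -0.53, with adjusted p-values of 0.0689, 0.0626, 0.0818, 0.0793 and 0.0745). Nor was it with the mesenchyme (-0.63, adjusted p = 0.0667), ganglion and bone (-0.56, adjusted p = 0.116) or Xist (-0.51, adjusted p = 0.0838) covariates, or without the pools high in Prph (-0.65, adjusted p = 0.115). Inhbb and Inha are known as genes of gonadotrophs, and the gonadotroph list lay lowest in Prop1df/df, at -1.70 to -0.47. Against Pit1+/+, its hormone genes Lhb and Fshb fell by 3.31 and 2.72, while its receptor gene Gnrhr and factor gene Nr5a1 differed by 0.33 and 0.30 and did not pass. Against Pit1dw/dw, Lhb, Gnrhr and Nr5a1 fell by 3.24, 1.16 and 1.08, and Fshb differed by -2.02 (adjusted p = 0.0689). The part of the gonadotroph markers in the falls of Inhbb and Inha was not tested.

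Of the TGF-beta ligands, Tgfb2 rose in Prop1df/df against Pit1+/+. It read 8.55, 8.31, 8.19, 8.68 and 9.08 in Pit1+/+, 8.92, 8.56, 8.32, 8.68 and 9.13 in Pit1dw/dw, and 9.51, 9.39, 9.03, 9.10 and 9.10 in Prop1df/df. Pit1+/+ pool 5 lay within the Prop1df/df range and the other 4 lay below it. The rise was 0.67 (8.56 ± 0.35 to 9.23 ± 0.21, SE 0.18, adjusted p = 0.0248), and the difference from Pit1dw/dw was 0.50 (adjusted p = 0.116). Without Prop1df/df pools 1, 2 and 3 the difference from Pit1+/+ was 0.54 (adjusted p = 0.276), and with the mesenchyme covariate 0.45 (adjusted p = 0.414). The call was lost when Pit1+/+ pool 1, 2 or 3 or Prop1df/df pool 1 or 2 was left out (0.66, 0.60, 0.57, 0.59 and 0.62, with adjusted p-values of 0.0506, 0.0687, 0.0617, 0.0706 and 0.0635). It was lost with the ganglion and bone covariates (0.58, adjusted p = 0.0614) and without the pools high in Prph (0.68, adjusted p = 0.0532) too. Tgfb1 and Tgfb3 differed by -0.19 (95% interval -0.78 to 0.40) and 0.41 (-0.16 to 0.98) between Prop1df/df and Pit1+/+, and by -0.08 (-0.67 to 0.50) and 0.36 (-0.21 to 0.94) between Pit1dw/dw and Pit1+/+. None of these passed.

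Among the receptors, the type I BMP receptor gene Bmpr1b moved furthest. It read 4.59, 4.09, 4.62, 4.29 and 4.08 in Pit1+/+, 4.36, 4.74, 4.76, 4.85 and 4.46 in Pit1dw/dw, and 5.50, 5.64, 4.97, 5.40 and 5.23 in Prop1df/df. All 5 Prop1df/df pools lay above the other 10. Bmpr1b was 2.02-fold higher than in Pit1+/+ (4.33 ± 0.27 to 5.35 ± 0.26, log2 change 1.01, SE 0.15, adjusted p = 0.000507) and higher by 0.71 than in Pit1dw/dw (adjusted p = 0.0098). The rise over Pit1+/+ passed in all 24 alternative settings, at 0.42 to 1.20, with the lowest value from the mean of its 3 probe sets. Without Prop1df/df pools 1, 2 and 3 the differences were 0.98 (adjusted p = 0.0112) and 0.68 (adjusted p = 0.0934), and with the mesenchyme covariate 0.85 (adjusted p = 0.0408) and 0.60 (adjusted p = 0.0968). Between Pit1dw/dw and Pit1+/+ the difference was 0.30 (95% interval -0.03 to 0.63, adjusted p = 0.657).

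Tgfbr2, the type II TGF-beta receptor gene, passed narrowly in Prop1df/df against Pit1+/+. It read 9.14, 8.53, 8.90, 9.14 and 8.30 in Pit1+/+, 9.24, 8.94, 9.15, 9.44 and 9.24 in Pit1dw/dw, and 9.34, 9.51, 9.33, 9.10 and 9.29 in Prop1df/df. Pit1+/+ pools 1 and 4 reached the lowest Prop1df/df pool. The rise was 0.51 (SE 0.16, adjusted p = 0.0499), and it passed in 6 of 24 alternative settings. It was 0.39 (adjusted p = 0.403) without Prop1df/df pools 1, 2 and 3, and with the mesenchyme covariate 0.14 (adjusted p = 0.775). Leaving out Pit1+/+ pool 2, 3 or 5, or Prop1df/df pool 1, 2, 3 or 5, also ended the call (0.44, 0.54, 0.39, 0.50, 0.46, 0.51 and 0.52, with adjusted p-values of 0.129, 0.0641, 0.0686, 0.0975, 0.118, 0.0674 and 0.0824). The co-receptor gene Tgfbr3 (betaglycan), which also binds inhibin, differed by 0.42 (0.08 to 0.76) between Pit1dw/dw and Pit1+/+ and by 0.33 (-0.0045 to 0.67) between Prop1df/df and Pit1+/+, with adjusted p-values of 0.421 and 0.211, the latter difference being 0.10 without Prop1df/df pools 1, 2 and 3.

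The remaining receptor genes did not pass in any comparison. The type I BMP receptor gene Bmpr1a differed by 0.43 between Prop1df/df and Pit1+/+ (95% interval 0.09 to 0.78, adjusted p = 0.108, and 0.22 without pools 1, 2 and 3) and the type II gene Bmpr2 by 0.27 (0.01 to 0.53, adjusted p = 0.183). The type I receptor gene Acvr1 differed by 0.44 (-0.06 to 0.94) and Acvrl1, an endothelial type I receptor gene, by 0.08 (-0.52 to 0.69). The activin receptor genes Acvr1b (type I), Acvr2a and Acvr2b (type II) differed by -0.18, 0.15 and -0.17, and the type I TGF-beta receptor gene Tgfbr1 by 0.08. Their intervals reach no further than 0.47 from 0. In that comparison 9 of 11 receptor genes lay above 0, with a median of 0.27 beside -0.04 for all genes. Between Pit1dw/dw and Pit1+/+ 7 of 11 did, with a median of 0.11.

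**Figure D4:**
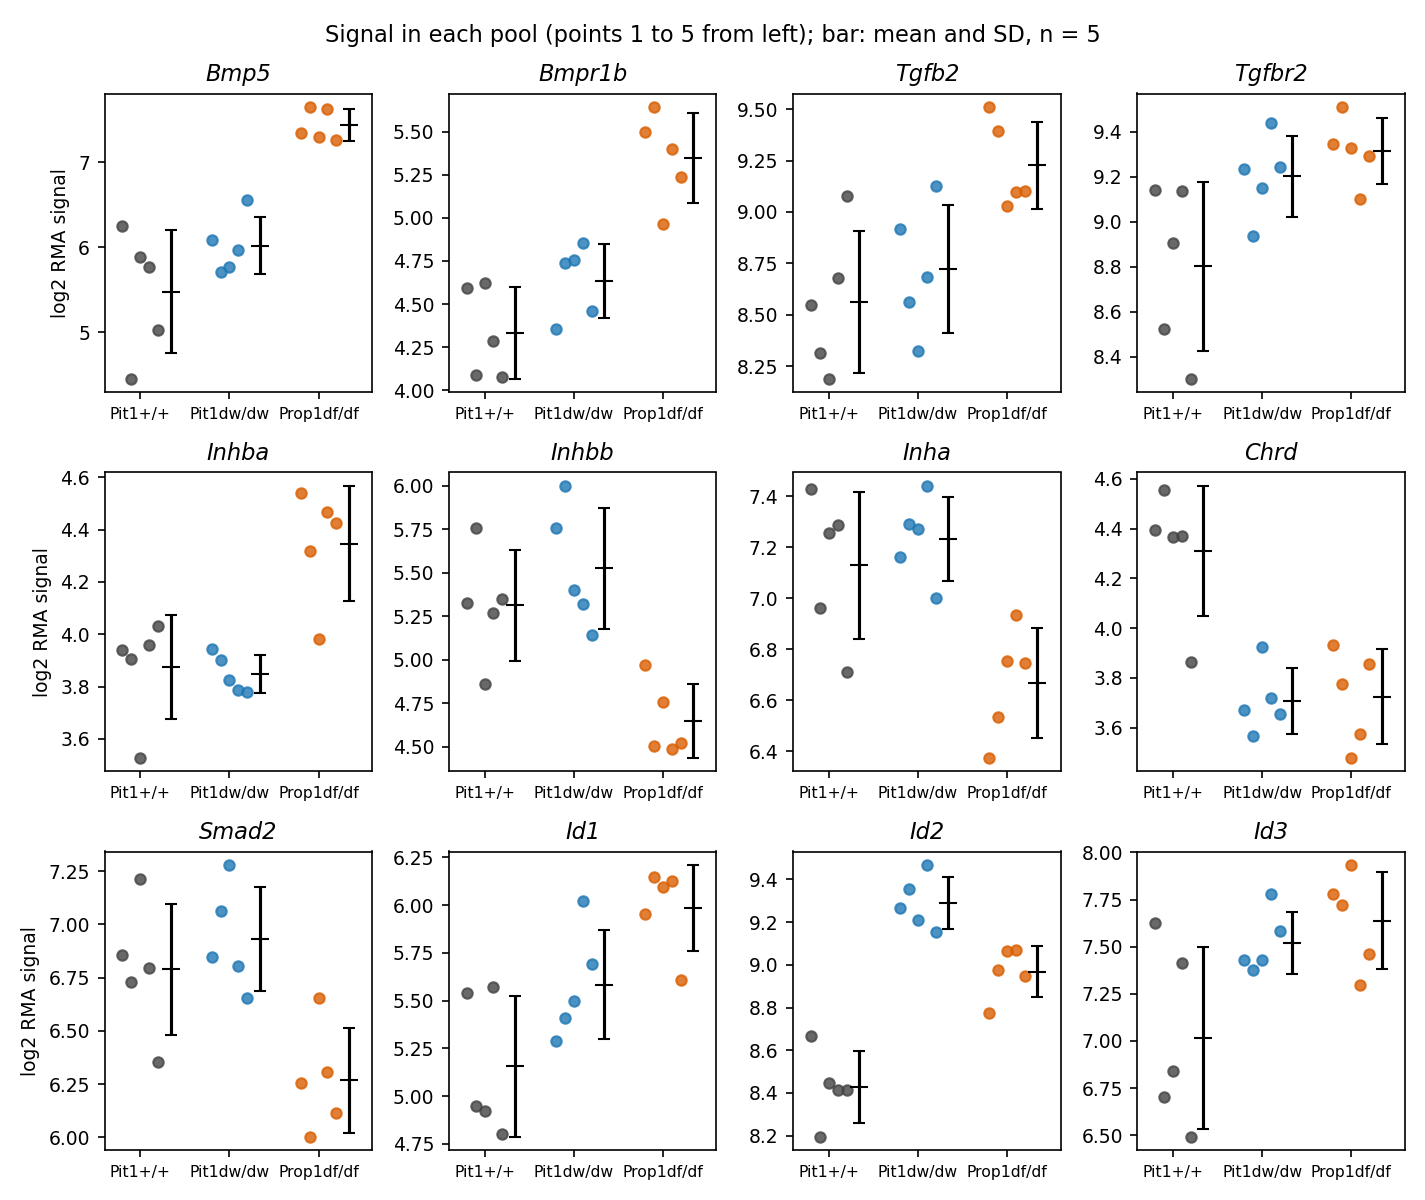
Log2 RMA signal of 12 genes in each pool (points, pools 1 to 5 from left to right) with the mean and SD of the 5 pools beside them. Bmp5 and Bmpr1b in Prop1df/df lie above the other 10 pools, and Id2 in Pit1dw/dw lies above the other 10.

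Of the 9 inhibitor genes, Chrd fell in Pit1dw/dw and in Prop1df/df, comparisons that share the Pit1+/+ pools. It read 4.39, 4.56, 4.36, 4.37 and 3.86 in Pit1+/+, 3.67, 3.57, 3.92, 3.72 and 3.65 in Pit1dw/dw, and 3.93, 3.78, 3.48, 3.58 and 3.86 in Prop1df/df. Of the Pit1+/+ pools, only pool 5 lay within the range of the mutant pools. The falls were -0.60 in Pit1dw/dw (SE 0.13, adjusted p = 0.0463) and -0.59 in Prop1df/df (SE 0.13, adjusted p = 0.00906), and the mutants differed by 0.02 (95% interval -0.26 to 0.30). All mutant pools read below the median of all values, where a fold is compressed. The Pit1dw/dw call passed in 3 of 22 alternative settings. It was lost on leaving out any of the 5 Pit1dw/dw pools (adjusted p from 0.0536 to 0.151) or Pit1+/+ pool 1, 2, 3 or 4 (0.0957 to 0.129), with changes between -0.66 and -0.54. With the replicate number as a block its adjusted p was 0.102. The Prop1df/df call passed in 19 of 23 settings. It was lost without Prop1df/df pools 1, 2 and 3 (-0.59, adjusted p = 0.0835), with the ganglion and bone covariates (-0.50, adjusted p = 0.0874), with the mesenchyme covariate (-0.55, adjusted p = 0.154) and without the pools high in Prph (-0.44, adjusted p = 0.123).

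Fst, which encodes the activin trap follistatin, had the largest mean SD within groups of all members (0.56, with 0.53 for Bmp6). It read 6.17, 5.87, 7.49, 6.19 and 6.24 in Pit1+/+, 7.37, 6.61, 7.84, 7.14 and 6.96 in Pit1dw/dw, and 6.38, 7.16, 7.41, 7.93 and 6.83 in Prop1df/df. Its differences from Pit1+/+ were 0.79 in Pit1dw/dw (95% interval 0.11 to 1.47, adjusted p = 0.48) and 0.75 in Prop1df/df (0.07 to 1.43, adjusted p = 0.158), or 0.99 without Prop1df/df pools 1, 2 and 3 (adjusted p = 0.25). Pit1+/+ pool 3 stood within the range of the mutants, and without it the Prop1df/df difference passed.

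The other inhibitors did not pass. The BMP trap genes Grem1, Chrdl1 and Nog differed by -0.54 (-0.93 to -0.15), 0.17 (-0.45 to 0.79) and 0.08 (-0.19 to 0.36) between Pit1dw/dw and Pit1+/+, and by -0.05, 0.21 and 0.01 between Prop1df/df and Pit1+/+. Fstl3, a follistatin relative that binds activin, differed by -0.02 and -0.20, and Bambi, a receptor without kinase activity, by -0.01 and -0.07. The inhibitory SMAD genes Smad6 and Smad7 differed by 0.05 and 0.14 in Pit1dw/dw and by -0.08 and -0.32 in Prop1df/df, and Smad7 by -0.46 (-0.83 to -0.10, adjusted p = 0.134) between the mutants. Nog and Smad6 are dim on these arrays, below the median of all values in every pool.

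The SMAD genes that carry the signal did not pass, apart from Smad2. Smad2 read 6.86, 6.73, 7.21, 6.79 and 6.35 in Pit1+/+, 6.85, 7.06, 7.28, 6.81 and 6.65 in Pit1dw/dw, and 6.25, 6.004, 6.65, 6.31 and 6.12 in Prop1df/df. The Prop1df/df pools were low, though pool 3 just reached Pit1dw/dw pool 5. Smad2 fell by 0.66 against Pit1dw/dw (6.93 ± 0.24 to 6.27 ± 0.25, SE 0.16, adjusted p = 0.0229), and its difference from Pit1+/+ was -0.52 (adjusted p = 0.0549), or -0.58 without Prop1df/df pools 1, 2 and 3. It passed in 14 of 24 alternative settings. The call was lost without Prop1df/df pools 1, 2 and 3 (-0.72, adjusted p = 0.115), with the mesenchyme covariate (-0.67, adjusted p = 0.1), and on leaving out Pit1dw/dw pool 2 or 3 or Prop1df/df pool 1, 2 or 5 (-0.63, -0.58, -0.66, -0.60 and -0.62, with adjusted p-values of 0.064, 0.0665, 0.0502, 0.0678 and 0.0594). It was lost too with the mean of its 2 probe sets (-0.46, adjusted p = 0.0594), the Xist covariate (-0.58, adjusted p = 0.0731) and no pools high in Prph (-0.64, adjusted p = 0.0511). Smad1 and Smad5, which carry BMP signals, differed by -0.10 (95% interval -0.34 to 0.13) and 0.18 (-0.15 to 0.51) between Prop1df/df and Pit1+/+. Smad3, the partner of Smad2, and Smad4, shared by all branches, differed by 0.00 (-0.22 to 0.22) and 0.14 (-0.16 to 0.44). Between Pit1dw/dw and Pit1+/+ the 5 differences ran from 0.03 to 0.17.

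The Id targets lay above 0 in both comparisons with Pit1+/+, whose pools they share, with medians of 0.47 in Pit1dw/dw and 0.58 in Prop1df/df beside -0.02 and -0.04 for all genes. Id2 read 8.67, 8.20, 8.45, 8.41 and 8.41 in Pit1+/+, 9.27, 9.35, 9.21, 9.47 and 9.15 in Pit1dw/dw, and 8.78, 8.97, 9.07, 9.07 and 8.95 in Prop1df/df. The 3 groups did not overlap at all, with Pit1dw/dw highest and Pit1+/+ lowest. Id2 rose by 0.86 in Pit1dw/dw (8.43 ± 0.17 to 9.29 ± 0.12, 1.82-fold, SE 0.10, adjusted p = 0.000437) and by 0.54 in Prop1df/df (8.97 ± 0.12, SE 0.10, adjusted p = 0.00312). The mutants differed by -0.32 (-0.54 to -0.10), which did not pass (adjusted p = 0.0825). The Pit1dw/dw rise passed in 22 of 23 settings. The exception leaves out probe sets named _a_at, _s_at or _x_at at their end, where a dim probe set with a mean of 2.61 stands for Id2 and the difference is 0.05 (adjusted p = 0.98) in Pit1dw/dw and -0.032 (adjusted p = 0.92) in Prop1df/df. Without Prop1df/df pools 1, 2 and 3 the Prop1df/df rise was 0.58 (adjusted p = 0.0349). It was not called with the mesenchyme covariate (0.41, adjusted p = 0.151) or without the pools high in Prph (0.48, adjusted p = 0.0695).

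Id1 read 5.54, 4.95, 4.92, 5.57 and 4.80 in Pit1+/+, 5.29, 5.41, 5.50, 6.02 and 5.69 in Pit1dw/dw, and 5.96, 6.15, 6.09, 6.13 and 5.61 in Prop1df/df. The lowest Prop1df/df pool lay just above the highest Pit1+/+ pool. Id1 rose by 0.83 in Prop1df/df (5.16 ± 0.37 to 5.99 ± 0.22, SE 0.18, adjusted p = 0.0072), and its difference in Pit1dw/dw was 0.43 (95% interval 0.04 to 0.81, adjusted p = 0.514). Without Prop1df/df pools 1, 2 and 3 it was 0.71 (adjusted p = 0.165), with the mesenchyme covariate 0.52 (adjusted p = 0.299), with the ganglion and bone covariates 0.78 (adjusted p = 0.0541) and without the pools high in Prph 0.69 (adjusted p = 0.106), none past the threshold. Id3 differed by 0.50 (0.09 to 0.92) in Pit1dw/dw and 0.62 (0.21 to 1.04) in Prop1df/df, with adjusted p-values of 0.442 and 0.0547, the latter difference being 0.36 without Prop1df/df pools 1, 2 and 3. Its Pit1+/+ pools ran from 6.49 to 7.63, and its Prop1df/df pools from 7.30 to 7.93. Id4 differed by 0.17 and 0.22 (adjusted p = 0.723 and 0.19).

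Most members have more than 1 probe set, 27 of 40, and their probe sets did not always move alike. Tested separately among all probe sets, the 3 of Bmp5 gave 1.96, 1.27 and 0.65 in Prop1df/df against Pit1+/+ (adjusted p = 0.000256, 0.00213 and 0.0397). The 4 of Tgfb2 gave 0.67, 0.65, 0.74 and 0.86, and all passed. For Bmpr1b the other probe sets gave 0.17 and 0.07, for Inhba -0.09 and for Inhbb -0.14, and these 4 are dim, with means of 3.10, 2.58, 2.92 and 3.01. The other Smad2 probe set, with a mean of 5.97, gave -0.26 against Pit1dw/dw (adjusted p = 0.404), so the fall of Smad2 rests on 1 of its 2. Id2's brighter alternative gave 0.93 in Pit1dw/dw (adjusted p = 0.0515) and 0.79 in Prop1df/df (adjusted p = 0.0194). For 2 members whose main probe set did not pass in Prop1df/df against Pit1+/+, another did, at 0.47 for Fst (adjusted p = 0.0441, mean 3.77) and 0.42 for Id4 (adjusted p = 0.0406, mean 7.68). Chrd, Inha, Id1 and Id3 have 1 probe set each.

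**Figure D5:**
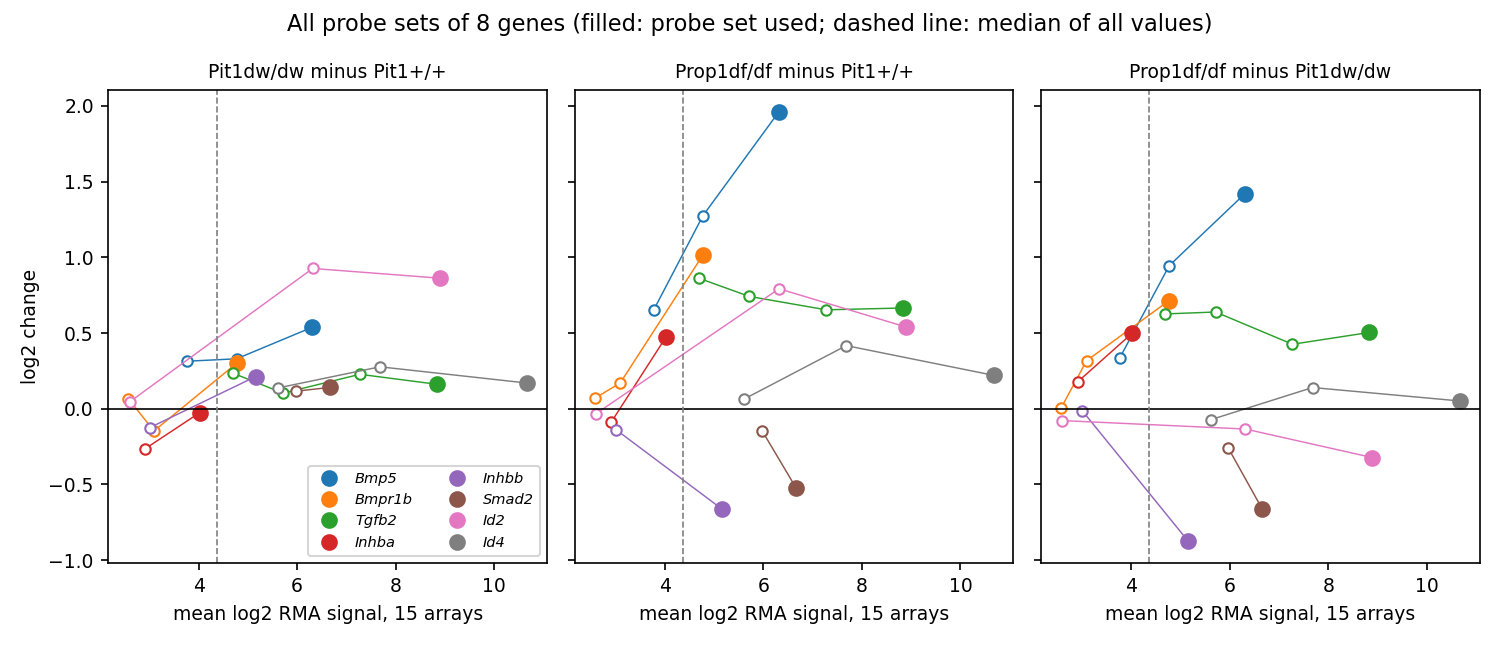
Log2 change of every probe set of 8 genes against its mean log2 RMA signal over 15 arrays, with the probe set used filled and the probe sets of a gene joined by a line; the dashed line marks the median of all values, 4.37. The probe sets of Bmp5 and Tgfb2 all lie above 0 in both comparisons with Prop1df/df, while the unused probe sets of Bmpr1b, Inhba and Inhbb, left of the dashed line, lie between -0.14 and 0.32 in them.

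A further 66 measured genes of the pathway, from a list of 76, were read from the same test. In Pit1dw/dw against Pit1+/+ 1 rose, Fstl5, which encodes a secreted follistatin-like protein (0.79, adjusted p = 0.0434). It passed in 8 of 23 alternative settings and was lost on leaving out any of the 5 Pit1dw/dw pools (adjusted p from 0.0783 to 0.124) or Pit1+/+ pool 1, 3, 4 or 5 (from 0.0579 to 0.135). In Prop1df/df against Pit1+/+ 5 rose and 3 fell, beside the 10.6% over all genes. Hey1, a repressor gene that Notch and BMP signals switch on, rose by 1.50 (adjusted p = 0.000195), and its pools read 10.07, 10.06, 9.10, 10.41 and 10.23 beside 8.17 to 8.71 in Pit1+/+. Ccn2, a TGF-beta-responsive matrix gene, rose by 1.52 (adjusted p = 0.00238) and Fstl5 by 1.04 (adjusted p = 0.000973). Tested among all probe sets, the other Fstl5 probe set, dim with a mean of 3.96, differed by -0.14 (adjusted p = 0.717). That probe set gave 0.71 in Pit1dw/dw against Pit1+/+ (adjusted p = 0.163) and -0.85 between the mutants (adjusted p = 0.0119). Map3k7, which encodes the TGF-beta-activated kinase TAK1, fell by 0.85 (adjusted p = 0.000331). Smurf1, a ubiquitin ligase gene that marks SMADs and receptors for breakdown, and Tob1, an antiproliferative gene whose product binds SMADs, fell by 0.76 (adjusted p = 0.00384) and 0.75 (adjusted p = 0.00417). Fstl1, of the follistatin-like family, and Tgif1, a SMAD corepressor gene, rose by 0.66 (adjusted p = 0.0430) and 0.60 (adjusted p = 0.0391). Fstl1 was not called on leaving out Pit1+/+ pool 2 or 5 or Prop1df/df pool 1, 2, 3 or 5 (adjusted p from 0.0514 to 0.107), nor Tgif1 on leaving out Pit1+/+ pool 1, 3, 4 or 5 or Prop1df/df pool 1, 2, 3 or 4 (from 0.05 to 0.0993). Without Prop1df/df pools 1, 2 and 3, Hey1 (1.85), Map3k7 (-0.86), Fstl5 (1.18) and Tob1 (-0.86) passed, while Ccn2 (1.36, adjusted p = 0.0637), Smurf1 (-0.76, adjusted p = 0.0527), Fstl1 (0.33, adjusted p = 0.558) and Tgif1 (0.39, adjusted p = 0.382) did not. With the mesenchyme covariate, Ccn2 (0.67, adjusted p = 0.169), Tob1 (-0.61, adjusted p = 0.155), Fstl1 (0.03, adjusted p = 0.949) and Tgif1 (0.80, adjusted p = 0.1) did not pass.

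Smurf2, a relative of Smurf1 named here after its values were seen, did not pass by its brightest probe set (0.46, adjusted p = 0.14). Another of its 3 probe sets, with a mean of 5.50, was higher by 2.48 against Pit1+/+ (adjusted p = 1.78e-05) and by 2.16 against Pit1dw/dw (adjusted p = 8.27e-05), and the remaining probe set differed by 0.21 and 0.07.

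Between the mutants 1 further gene rose and 2 fell, beside the 6.26% over all genes. Hey1 was higher by 1.25 in Prop1df/df (adjusted p = 0.00108). Vwc2, which encodes the BMP antagonist brorin, fell by 1.59 (adjusted p = 0.00113), from 7.49 to 7.85 in the Pit1dw/dw pools to 5.36 to 6.62 in Prop1df/df. Its Pit1+/+ pools read 5.96 to 7.29. Neither Vwc2 difference from Pit1+/+ passed, at 0.91 in Pit1dw/dw (adjusted p = 0.190) and -0.68 in Prop1df/df (adjusted p = 0.111). Map3k7 fell by 0.73 (adjusted p = 0.00143). These 3 passed without Prop1df/df pools 1, 2 and 3 (1.60, -1.18 and -0.74) and in every alternative setting run. Next in order were Tob1 (-0.48, adjusted p = 0.0727), the BMP-responsive homeobox gene Msx1 (-0.65, adjusted p = 0.0738) and Ccn2 (0.87, adjusted p = 0.0835), which did not pass.

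Within groups, the members were also set against the ganglion and bone list means in a model with both. Smad2 was the member called on the ganglion measure, with a slope of 0.13 log2 units for each unit of the list mean (SE 0.04, adjusted p = 0.0405), beside 6.06% of 18175 genes. That call did not hold with the replicate number as a block (0.07, adjusted p = 0.931), nor with a second quantile normalization (adjusted p = 0.0877), the mean of its probe sets (0.0702), an intensity trend with a robust prior (0.0736) or probe sets named _a_at, _s_at or _x_at at their end left out (0.0503). Pools whose omission ended it were Pit1+/+ pools 2, 3 and 4, Pit1dw/dw pools 1, 2, 3 and 4 and Prop1df/df pools 2, 3 and 5, with adjusted p-values from 0.0529 to 0.194. Fst had a slope of 0.24 (adjusted p = 0.0517). On the bone measure limma called 0 members, beside 0.0770% of all genes, and at an unadjusted p under 0.05 there were 3 members and 810 genes. On the level of Xist, an RNA of female cells, it called 0 members and 0 of all genes (0 members and 290 genes at an unadjusted p under 0.05). Xist read 3.69 in Pit1+/+ pool 4, 4.20 in Pit1dw/dw pool 2 and 3.89 in its pool 3, beside at least 8.55 elsewhere.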

How the data were processed

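RNA pools from newborn pituitary were hybridised to Affymetrix mouse genome arrays as biotin-labelled cRNA, 1 array a pool, per the labels' protocols. The deposited values are log2 RMA signals made by the authors, with RMA named in the submitters' processing notes (version not given in the sources used here). RMA makes the distributions of the arrays alike and compresses differences of dim probe sets. Samples were grouped by title. Of 45037 probe sets that are not controls, 34945 name 1 gene in the annotation used and were reduced to 18193 genes by the highest mean over 15 arrays.

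For each gene, limma 3.58.1 (R 4.3.3) estimated a mean for each of the 3 groups from the 15 arrays together (lmFit and eBayes, two-sided). Benjamini-Hochberg adjustment ran over the 18193 genes, with a threshold of 0.05. Log2 changes are given with the SE or the 95% interval of the fit, which measure how precisely a difference is known. They rest on an estimate of the gene's spread between pools that the 3 groups share and that is moderated over all genes. The code was run on simulated data with independent noise and with shifts added in Pit1dw/dw alone. Such data lack the tissue differences seen between these pools. Up to 24 alternative settings were run, one at a time. Those without Prop1df/df pools 1, 2 and 3 and with the mesenchyme covariate were chosen after seeing the data. The former leaves fewer pools, so a call can be lost there without a smaller change. The mesenchyme list mean did not overlap between Prop1df/df and Pit1+/+ and overlapped little between the mutants. A call lost with that covariate therefore cannot tell the group from the mesenchyme markers. Pools high in Prph are those above 7.

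The members and lists were chosen with earlier results of these data known. All members are named, with pool values for those past the threshold and for Fst. Of the further genes, those past the threshold in Pit1dw/dw and the 6 with the smallest adjusted p in each other comparison are named; Fstl1 and Tgif1 were added after their values were seen. Figures were drawn with matplotlib 3.10.9.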

Additional observations from a re-analysis of the deposited data

Results flagged for a closer look

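In 5 of 120 groups of 5 pools, 1 pool stood apart from the others by Dixon's criterion, a share of 4.17% where chance gives about 1 in 20. In Pit1+/+, pool 3 was low for Inhba, at 3.53 beside 3.91 for the next, and high for Fst, at 7.49 beside 6.24. Pit1+/+ pool 5 was low for Chrd, at 3.86 beside 4.36, and for Bambi, at 6.25 beside 7.33. Prop1df/df pool 3 was low for Smad4, at 9.26 beside 9.78. Pit1+/+ pool 3 and Prop1df/df pool 3 are also the pools with the highest Prph in their groups, at 10.59 and 10.46. Within groups, limma's slopes on the ganglion list, which holds Prph, were -0.08 for Inhba, 0.24 for Fst and -0.11 for Smad4. Their adjusted p-values were 0.148, 0.0517 and 0.0803, so none passed. Whether the neurone markers account for these single values was not tested.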

How the results depend on the processing

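Of 401 alternative values for the 17 changes of members past the threshold, 299 kept their direction and call, 101 kept the direction only and 1 reversed. The reversal is Id2 in Prop1df/df against Pit1+/+, at -0.032 with probe sets named _a_at, _s_at or _x_at at their end left out. For the 12 changes of further genes, 233 of 286 kept the call and 53 the direction only.

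In Pit1dw/dw against Pit1+/+, 2 members were called. Leaving out 1 pool gave 1 to 2, and 1 was called with median centring, a second quantile normalization, dim probe sets left out, an intensity trend with a robust prior, only the 2 groups, ganglion and bone covariates, no pools high in Prph, Xist as a covariate and mesenchyme as a covariate, and 0 without probe sets named _a_at, _s_at or _x_at at their end. All genes numbered 140, with 83 to 161 on leaving out 1 pool, 571 with array weights and 51 without the pools high in Prph. Further genes numbered 1, with 0 to 1 on leaving out 1 pool, 2 with the mean of probe sets, 5 with array weights, and 0 with median centring, only the 2 groups, ganglion and bone covariates, no pools high in Prph or Xist.

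In Prop1df/df against Pit1+/+, 9 members were called, with 6 to 11 on leaving out 1 pool, 15 with array weights, 5 without the pools high in Prph, 4 without Prop1df/df pools 1, 2 and 3, and 2 with the mesenchyme covariate. All genes numbered 1920, with 1401 to 3258 on leaving out 1 pool (the latter without Pit1+/+ pool 5), 4297 with array weights, 1264 with ganglion and bone covariates, 890 without Prop1df/df pools 1, 2 and 3, and 574 with the mesenchyme covariate. Further genes numbered 8, with 6 to 8 on leaving out 1 pool, 13 with array weights, 5 with ganglion and bone covariates, 5 without the pools high in Prph, 4 without Prop1df/df pools 1, 2 and 3, and 4 with the mesenchyme covariate.

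In Prop1df/df against Pit1dw/dw, 6 members were called, with 3 to 6 on leaving out 1 pool, 11 with array weights, 3 with ganglion and bone covariates, 2 without the pools high in Prph, 2 without Prop1df/df pools 1, 2 and 3, and 1 with the mesenchyme covariate. All genes numbered 1139, with 826 to 1345 on leaving out 1 pool, and in the same order 2390, 718, 746, 503 and 640. Further genes numbered 3, with 3 to 4 on leaving out 1 pool, 7 with array weights and 6 with only the 2 groups.

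The ganglion and bone slopes called 1 member, with 0 to 1 on leaving out 1 pool, 2 with median centring, dim probe sets left out or array weights, and 0 with a second quantile normalization, the mean of probe sets, or probe sets named _a_at, _s_at or _x_at at their end left out. The Xist slope called 0 throughout.

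The replicate numbers of the titles were used as a block as an alternative. Deviations of pools with the same number correlated between -0.31 and 0.67, and not all were over 0.1, so the numbers were not taken to pair the pools. The pools numbered 3 correlated at 0.64, 0.67 and 0.51 in the 3 comparisons and best with their own number in each. This is a hint from the data, not the design, and not every pool did so. The pools numbered 3 also had the highest ganglion list mean of their groups, at 2.82 in Pit1+/+, 2.17 in Pit1dw/dw and 2.42 in Prop1df/df. The part of the ganglion markers in these correlations was not tested. With the replicate block, the calls were 1 member, 137 genes and 0 further genes in Pit1dw/dw against Pit1+/+, 10, 2138 and 8 in Prop1df/df against Pit1+/+, 6, 1313 and 4 between the mutants, and 0 members for the slopes. The cause of these shifts was not tested. Nog and Smad6 lay below the median of all values, 4.37, in every pool. Among the members the SE was largest for Bmp6 (0.34), Fst (0.32) and Bmp4 (0.31).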

Other observations

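Several members were low in the same Pit1+/+ pools, a pattern picked out after the values were seen. In Pit1+/+ pool 2, Bmp4 read 4.60, Bmp5 4.46 and Acvrl1 4.38, beside 5.11 to 6.44, 5.03 to 6.26 and 5.04 to 6.11 in the other 4. The mesenchyme list mean was lowest of all pools there, at -1.25, with the collagen gene Col1a2 at 10.66 beside 12.21 to 12.65 and the matrix gene Postn at 6.86 beside 7.93 to 8.71. In Pit1+/+ pool 5, Bmp6 read 5.10, Tgfb3 6.28 and Id3 6.49, beside 6.10 to 7.26, 6.71 to 7.84 and 6.70 to 7.63. The median SD within groups was 0.24 for the members and 0.23 for all genes.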
